A study of Mus musculus with 28 samples.

Results

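The RNA left in mouse plasma after extracellular vesicles (EVs, membrane-bound particles that cells release) had been pelleted was compared between old and young mice. The old group held 4 libraries, 2 from mice of 12 months and 2 from mice of 18 months, and the young group held 3 libraries from mice of 2 months. These 7 libraries are those of the 28 in the series that carry the plasma fraction label and one of these ages. All were wild-type C57BL/6N females, an inbred strain, and by the submitters' protocol each library came from the blood of 1 animal without pooling. Blood was drawn from the vena cava under ketamine and xylazine, platelets and debris were spun out, and the plasma was then ultracentrifuged. The pellet gave the EV libraries and the fluid above it the plasma libraries described here. Body weight rose with age, from 19 to 20 g at 2 months to 31 g at 12 months and 34 to 41 g at 18 months, so age and weight cannot be told apart. The labels of 2-month replicates 2 and 3 share a code that joins 2 animal numbers. They were counted as 2 samples, as their replicate numbers have it, but if both came from 1 mixed or divided sample, every n = 3, SD and p-value below would rest on 2 independent young samples. The deposited table lists 80668 RNAs in 10 classes.

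Cell-free plasma carries short RNA in several forms. Mature microRNAs (miRNAs) are about as long as the sequenced fragments themselves and pair with messenger RNAs through their seed, the bases near the 5′ end. Most other classes are seen as fragments: transfer RNAs (tRNAs) are cut by ribonucleases in stressed or dying cells, and ribosomal RNAs (rRNAs) and small nuclear and nucleolar RNAs shed pieces when cells break. RNA outside vesicles survives mainly where protein or its own fold shields it, as in Argonaute complexes for miRNAs. Rows named piRNA or circRNA hold reads that match sequences listed in databases of germline small RNAs and of circular RNAs, and a short read cannot tell these from other transcripts of the same sequence.

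The RNAs of known sequence on which the results turn are shown here. Of the 240 miRNAs tested, 186 have a mature sequence in RefSeq (GRCm38.p6). The 4 miRNAs that were lower in old plasma past the adjusted threshold are printed 5′ to 3′ with the seed, bases 2 to 8, in capitals.
miR-296-5p: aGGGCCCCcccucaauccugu
miR-1956: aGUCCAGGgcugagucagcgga
miR-455-3p: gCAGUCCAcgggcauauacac
miR-7116-5p: uGAAGACAucaggaaaaaaaa
These 4 have different seeds, and no other tested miRNA with a RefSeq sequence had any of them. Their genes lie at chr2:174267093-174267113 (minus strand, miR-296-5p), chr3:138526425-138526446 (plus strand, in an exon of Eif4e, miR-1956), chr4:63256904-63256924 (plus strand, in an intron of Col27a1, miR-455-3p) and chr11:100478455-100478475 (minus strand, in an intron of Acly, miR-7116-5p).

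The miR-29 family lowers collagen and other matrix transcripts, and its members miR-29b-3p and miR-29c-3p were higher in old plasma when miRNAs were fitted by themselves. The 3 tested members share 1 seed.
miR-29a-3p: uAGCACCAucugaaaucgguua
miR-29b-3p: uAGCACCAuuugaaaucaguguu
miR-29c-3p: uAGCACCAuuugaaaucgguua
The genes of miR-29a-3p and 1 copy of miR-29b-3p lie on chromosome 6 (chr6:31062673-31062694 and chr6:31063025-31063047, minus strand), and those of miR-29c-3p and the other copy of miR-29b-3p on chromosome 1 (chr1:195037600-195037621 and chr1:195037091-195037113, plus strand), in exons of the transcript A330023F24Rik and across from exons of Cd46.

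The small nucleolar RNAs (snoRNAs, which guide chemical modification of rRNA) below were both lower in old plasma. The sequences are whole and come from GENCODE M21 (GRCm38), and no part is marked.
Gm26278: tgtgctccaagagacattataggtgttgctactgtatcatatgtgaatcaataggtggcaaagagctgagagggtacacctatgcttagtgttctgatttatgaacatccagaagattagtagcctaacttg
Gm22771: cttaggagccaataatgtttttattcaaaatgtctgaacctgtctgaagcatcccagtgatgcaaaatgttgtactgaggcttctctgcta
Gm26278 is 132 bases long and lies at chr10:101544177-101544308 on the plus strand, where the annotation holds no other gene. Gm22771 is 91 bases long and lies at chr11:74906109-74906199 on the plus strand, in an intron of Tsr1, which codes for a ribosome maturation factor.

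The total counts were 19908600, 8483230 and 20634700 in the 2-month libraries, 2711590 and 23905700 at 12 months, and 9415680 and 20039100 at 18 months. The 12-month replicate 1 was thus the shallowest, with 7380 miRNA counts, while 12-month replicate 2 had 82646. How reads that match several listed RNAs were counted is not stated. Fractional counts occurred in 46 rows, all of them miRNAs, while many copies of a tRNA or of 5S rRNA held the same whole counts, so such rows are not separate observations. Libraries of the same age differed by more than counting noise, with a chi-square per degree of freedom of 79.5 to 134 over 5015 RNAs, and were kept as separate samples.

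tRNA fragments made up most counts at both ages, and their share was larger in the old libraries. The tRNA share was 64.7%, 58.6% and 66.9% at 2 months, 73.0% and 72.1% at 12 months, and 75.5% and 78.8% at 18 months. The groups did not overlap, and the means were 63.4% ± 4.29 (SD, n = 3) and 74.9% ± 3.00 (SD, n = 4). The rRNA share was 14.6%, 12.7% and 12.4% at 2 months, 5.61% and 10.99% at 12 months, and 4.25% and 6.33% at 18 months. Every old library was below every young library, with means of 13.2% ± 1.19 and 6.80% ± 2.92. The share of piRNA-listed sequences was 8.36%, 9.91% and 9.23% at 2 months, 3.99% and 6.21% at 12 months, and 5.63% and 5.10% at 18 months. These also did not overlap, with means of 9.17% ± 0.776 and 5.23% ± 0.943.

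For each of these 3 classes the two-sided exact permutation test over the 35 ways of splitting 7 libraries gave p = 0.0571, the smallest that doubling the smaller tail can give here, and p = 0.19 after adjustment over the 10 classes. The other classes overlapped between the ages. miRNAs took 0.248% to 0.374% of counts at 2 months and 0.270% to 0.346% in the old libraries (exact permutation p = 0.857). circRNA-listed rows took 6.74% to 12.1% and 5.43% to 11.6% (exact permutation p = 0.686).

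**Figure D1:**
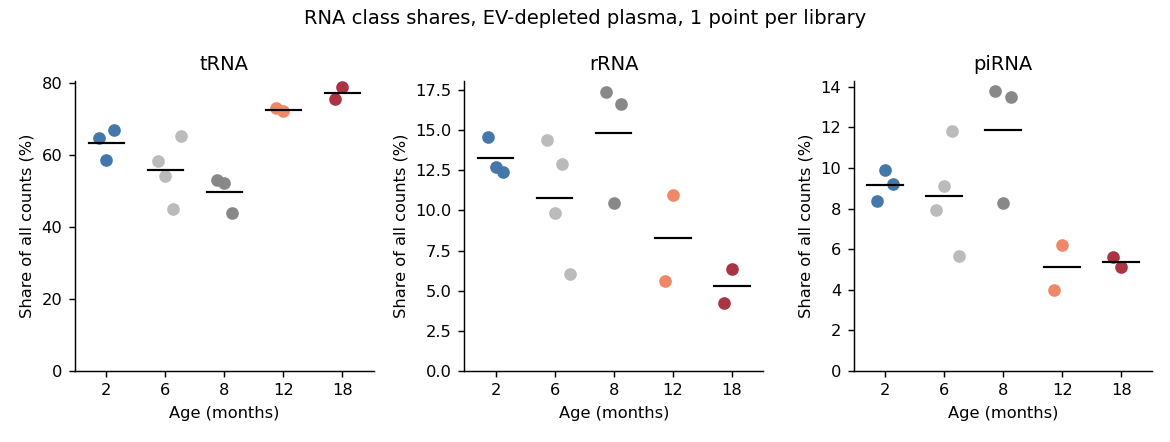
Share of all counts (%) taken by tRNA, rRNA and piRNA-listed rows in each EV-depleted plasma library, by age in months, with bars at the mean of each age. The 4 libraries at 12 and 18 months lie at 72.1% to 78.8% tRNA, above all 3 libraries at 2 months, and below them in the other 2 panels.

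The libraries of the ages between did not fill the gap in order. At 6 and 8 months the tRNA share ran from 43.8% to 65.4%, the rRNA share from 6.05% to 17.4% and the piRNA share from 5.64% to 13.8%, so that for tRNA none of these 7 libraries reached the old ones. In EVs of the same ages the tRNA share was lower throughout, 24.9% to 41.7% at 2 months and 40.0% to 51.4% at 12 and 18 months, and the 2 ranges overlapped. The EV rRNA share was 30.5% to 49.0% and 23.4% to 43.4%.

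The difference in the tRNA share was spread over many isotypes and was not carried by those with the largest summed shares. These shares sum rows that often hold the same counts, as the 16 tRNA-Pro rows held 6 distinct sets. Which isotypes rank as most abundant thus depends in part on the number of gene copies. Fragments of tRNA-Pro, the largest group, took 21.5%, 22.8% and 24.0% of all counts at 2 months and 25.1%, 19.8%, 24.1% and 20.5% at 12 and 18 months, which overlapped. tRNA-His overlapped as well, at 8.50% to 12.4% and 7.86% to 11.4%, as did tRNA-Gly, tRNA-Glu and tRNA-Val. tRNA-Gln, which delivers glutamine, showed the widest gap. Its share was 2.52%, 2.51% and 2.34% at 2 months, 5.74% and 5.22% at 12 months, and 5.90% and 8.33% at 18 months. The lowest old library was thus above the highest young one by more than the whole spread of the young group.

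Several isotypes with smaller summed shares were separated as well. tRNA-Arg took 0.805% to 1.09% at 2 months and 1.40% to 2.33% in the old libraries, tRNA-Asp 1.53% to 1.97% and 2.06% to 4.06%, tRNA-Ala 0.664% to 0.873% and 1.28% to 1.65%, and tRNA-Leu 0.572% to 0.842% and 0.994% to 2.58%. The initiator tRNA-iMet, which starts every protein chain, took 0.386% to 0.523% and 0.611% to 0.666%. This separation is one of shares of all counts. As CPM, the TMM-scaled counts used for single RNAs below, the sums of these isotypes overlapped. For example, tRNA-Arg was at 5987 to 13520 CPM at 2 months and 8164 to 33515 CPM in old plasma. tRNA-Gln stayed apart, but narrowly, at 16784 to 33045 CPM and 33510.5 to 107275 CPM. In EVs the tRNA-Gln share was 1.12% to 1.45% at 2 months and 2.49% to 4.97% at 12 and 18 months, again without overlap, and in plasma at 6 and 8 months it was 2.63% to 5.38%.

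**Figure D2:**
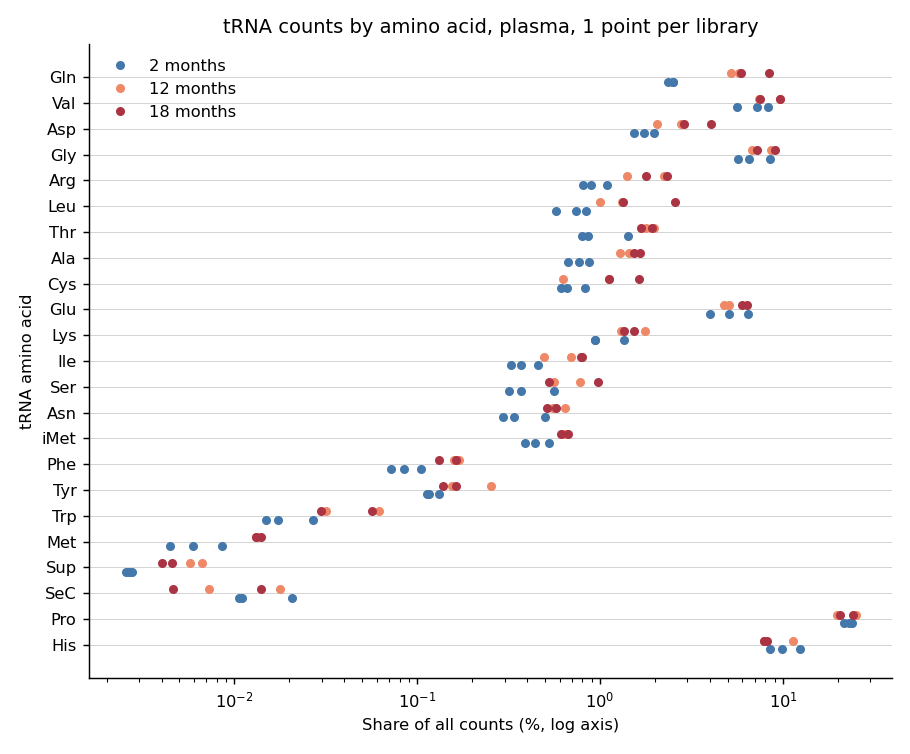
Share of all counts (%, log axis) of tRNA rows summed by amino acid, 1 point per plasma library, ordered by the difference between the age means. tRNA-Gln at the top lies at 2.34% to 2.52% at 2 months and 5.22% to 8.33% in old libraries, while tRNA-Pro and tRNA-His at the bottom overlap.

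Summed over the rows of the rRNA class, 5S rRNA carried most of the difference. 5S rRNA is the small RNA of the large ribosomal subunit, and its 180 n-R5s rows are near-identical copies that share reads. Together they took 8.30%, 5.74% and 6.67% of counts at 2 months, 1.85% and 5.42% at 12 months, and 1.46% and 2.98% at 18 months. As shares the groups did not overlap, although 12-month replicate 2 lay just below the lowest young library. As CPM they overlapped, at 38336 to 102884 CPM at 2 months and 10812 to 81434 CPM in old plasma. Rn5s, 1 of the 5S rows listed under another name, took 0.243%, 0.167% and 0.184% at 2 months and 0.0527%, 0.160%, 0.0416% and 0.0874% later. The sums within the rRNA and piRNA classes were chosen after their values were seen. The 18S row CT010467.1, from the small ribosomal subunit, overlapped, at 3.92% to 5.32% and 2.38% to 4.06%. Reads may be counted in many 5S rows, so the summed weight of 5S beside the single 18S row depends on the number of copies. Row by row, the means of old and young differed by -0.113 points for Rn5s and -1.35 points for CT010467.1. Most of the difference in the piRNA share came from a pair of rows with nearly the same counts, piR-515 and oocyte_piRNA978. Together they took 1.91%, 4.02% and 3.51% at 2 months and 0.242%, 0.277%, 0.638% and 0.530% in the old libraries. All other piRNA rows together overlapped, at 5.73% to 6.46% and 3.75% to 5.93%. With rows of identical counts counted once, a setting chosen after seeing the data, the piRNA difference was -8.05 percentage points in place of -3.93.

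RNA by RNA, the 16007 RNAs that reached 1 RPM (reads scaled per library) in 3 or more of these libraries were compared by edgeR's quasi-likelihood test on TMM-scaled counts, with Benjamini-Hochberg adjustment over all of them. At an adjusted p below 0.05, 118 RNAs were lower in old plasma, which is 0.737% of those tested, and 0 were higher. At an unadjusted p below 0.05 there were 1786 RNAs, 11.2%, of which 708 were higher and 1078 lower. DESeq2 called 276 lower and 47 higher, and its calls included all 118. Levels below are CPM, counts scaled to library size by this method. With RPM in place of TMM the median log2 change of all tested RNAs moved from 0.03 to 0.35, and 12 RNAs were then called, all lower and all among the 118.

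Most calls were lost when single libraries were left out. Without 2-month replicate 2, 2-month replicate 3, 12-month replicate 1 or 18-month replicate 1 there were 0 calls, without 12-month replicate 2 there were 3, without 2-month replicate 1 there were 9, and without 18-month replicate 2 there were 110. Each library but 18-month replicate 2 thus moved the count by far more than 1.5 times.

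The 118 RNAs belonged to 69 lncRNA, 41 circRNA, 4 miRNA, 2 piRNA and 2 snoRNA rows. Many rows are transcripts or circles of 1 gene, and they fall into 68 loci. Their log2 changes ran from -3.65 to -1.42 with a median of -2.23, and in all 118 the groups did not overlap. Such separation downward was seen in 6.38% of all RNAs tested and upward in 4.19%.

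**Figure D3:**
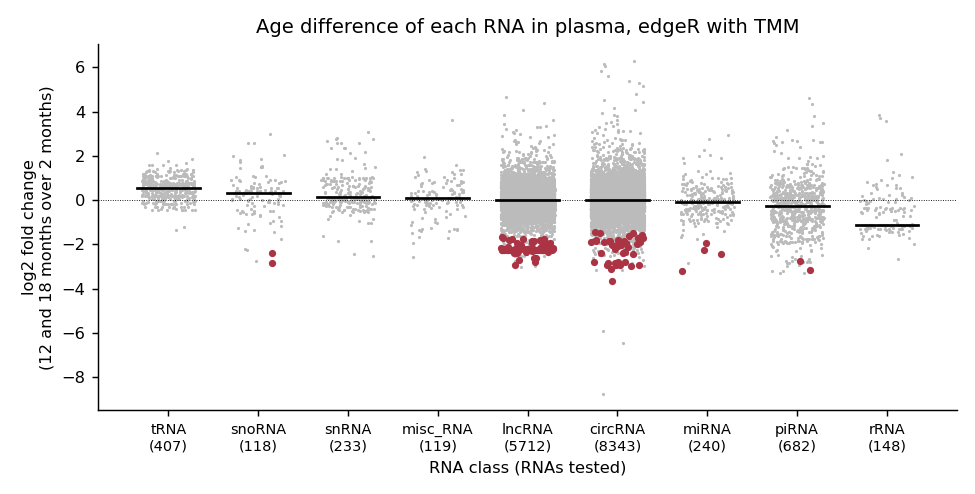
log2 fold change of each tested RNA, 12 and 18 months over 2 months, by RNA class (the 5 scaRNAs tested are not drawn), with black bars at the class median and red points for RNAs with an adjusted p below 0.05. The class medians run from 0.53 for tRNA to -1.11 for rRNA, and the 118 red points lie below zero.

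Among circRNA-listed rows the smallest p belonged to mmu_circ_0011323, hosted by Usp48, a deubiquitinating enzyme. Its levels were 10.6, 9.21 and 10.6 CPM at 2 months and 1.51, 1.19, 1.48 and 1.54 CPM in the old libraries. The young values lay close together and far above the old ones, and the log2 change was -2.82 (SE 0.26, edgeR adjusted p = 0.0187). The next, mmu_circ_0000552 of Fndc3a, a membrane protein needed in sperm formation, was at 9.53, 8.97 and 12.7 CPM and at 1.51, 0.942, 1.57 and 1.54 CPM (log2 change -2.91, SE 0.30, edgeR adjusted p = 0.0191). Ubr3, a ubiquitin ligase, gave the most abundant called rows. Its mmu_circ_0010135 was at 2999, 2006 and 3619 CPM at 2 months and at 262, 377, 347 and 651 CPM in the old libraries (log2 change -2.81, SE 0.48, edgeR adjusted p = 0.033). It was named after its values were seen. Of the 8 Ubr3 rows tested 4 were called, and 3 of these held almost the same counts.

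Among lncRNA rows, Gm49756 was at 39.6, 25.6 and 39.0 CPM at 2 months and at 4.74, 4.40, 4.86 and 7.39 CPM in old plasma. All 4 old libraries lay far below the young ones (log2 change -2.69, SE 0.31, edgeR adjusted p = 0.033). It lies at chr16:30866139-30870724 on the minus strand, and its span overlaps an exon of the lincRNA Gm49757 on the plus strand. Gm8066, at chr5:137510253-137517501 on the plus strand across from Epo, the erythropoietin gene, was at 40.3, 23.5 and 38.8 CPM and at 4.52, 4.15, 6.35 and 6.94 CPM (log2 change -2.63, SE 0.32). Reads of overlapping genes cannot be told apart where strand was not used in counting, which the sources do not state. The lincRNA Gm29154, at chr9:103888423-103960376 on the minus strand, supplied 34 of the 118 calls through its transcripts, of 41 tested. These 34 rows had 32.1 to 32.4, 23.5 to 24.0 and 16.2 to 16.4 CPM at 2 months and 3.38 to 7.64 CPM in old plasma, and count as 1 observation.

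The snoRNAs printed above fell as far. Gm26278 was at 43.0, 31.7 and 46.8 CPM at 2 months and at 3.01, 4.02, 5.36 and 9.63 CPM in the old libraries, and the log2 change was -2.86 (SE 0.41, edgeR adjusted p = 0.033). Gm22771 was at 8.72, 9.44 and 15.5 CPM and at 1.51, 1.19, 1.98 and 3.73 CPM (log2 change -2.39, SE 0.42, edgeR adjusted p = 0.0421). In both, 18-month replicate 2 was the highest of the old libraries. The class around them did not fall: of 118 snoRNAs tested 74 had a log2 change above 0 and 44 below, with a median of 0.31.

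The called piRNA rows were piR-9248, at 20.1, 17.9 and 24.7 CPM at 2 months and 2.15, 0.817, 1.32 and 5.14 CPM in old plasma, and piR-110033, at 2.55, 3.15 and 4.38 CPM and 0.431, 0.314, 0.659 and 0.578 CPM. The log2 changes were -3.13 (SE 0.56, edgeR adjusted p = 0.0421) and -2.73 (SE 0.36, edgeR adjusted p = 0.033). The far more abundant piR-515, named after its values were seen, was at 11692, 13335 and 24718 CPM and at 698, 1926, 2458 and 3385 CPM. Its groups did not overlap either, but it did not pass (log2 change -2.97, SE 0.69, edgeR adjusted p = 0.125). The abundant lincRNA Gm47181, also named after its values were seen, at 1912, 1259 and 2379 CPM and 186, 228, 353 and 511 CPM, missed the threshold as well (log2 change -2.53, SE 0.48, edgeR adjusted p = 0.0558).

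The 4 called miRNAs were rare. miR-1956 had 39, 19 and 45 counts at 2 months and 1, 7, 5 and 8 counts in the old libraries, or 1.5 to 3.08 CPM against 0.215 to 0.514 CPM. Its log2 change was -2.44 (SE 0.37, edgeR adjusted p = 0.033). miR-455-3p, a miRNA of cartilage, had 33, 15 and 36 counts and then 1, 6, 6 and 6 (log2 change -2.27, SE 0.38, edgeR adjusted p = 0.033). miR-7116-5p had 51, 68 and 95 counts and then 6, 14, 18 and 25 (log2 change -1.92, SE 0.34, edgeR adjusted p = 0.0421). miR-296-5p, whose mean was under the 2 RPM asked of named RNAs and which was named after its values were seen, had 54, 16 and 19 counts and then 1, 3, 4 and 2 (log2 change -3.19, SE 0.53, edgeR adjusted p = 0.033). In each the groups were separate, but several of the old counts are too low for a precise fold.

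**Figure D4:**
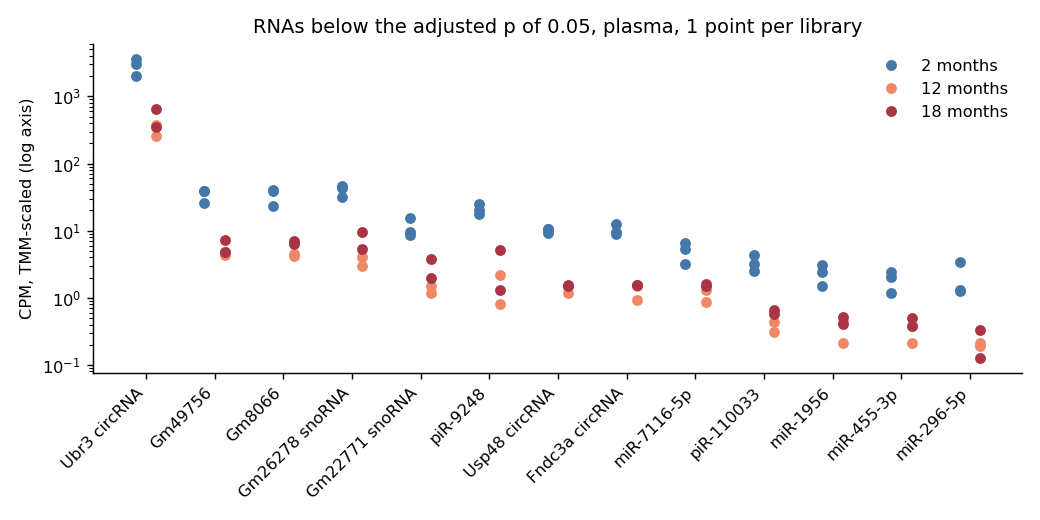
TMM-scaled CPM (log axis) of 13 RNAs with an adjusted p below 0.05, 1 point per plasma library, with 2 months to the left and 12 and 18 months to the right of each tick. For Gm49756 the young libraries lie at 25.6 to 39.6 CPM and the old ones at 4.40 to 7.39 CPM, and in no RNA shown do the ages overlap.

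No RNA passed in the upward direction, and the highest-ranked ones are given as values. tRNA-Leu-TAA-2-1 was at 17.8, 13.1 and 21.4 CPM at 2 months and at 34.7, 67.9, 28.1 and 47.1 CPM in old plasma, without overlap (log2 change 1.35, SE 0.37, edgeR adjusted p = 0.205). tRNA-Leu-TAA-3-1 had a log2 change of 1.14 (SE 0.36, edgeR adjusted p = 0.277), and the 4 Leu-TAA rows summed to 34.2 to 49.6 CPM and 77.3 to 150 CPM. Of the 407 tRNA rows 350 had a log2 change above 0, with a median of 0.53, and 44 were higher and 1 lower at an unadjusted p below 0.05, beside 4.42% higher and 6.73% lower among all RNAs. The 1 lower row was tRNA-His-GTG-1-1, at 452, 456 and 1190 CPM and 154, 444, 207 and 422 CPM (log2 change -1.19, SE 0.53, edgeR adjusted p = 0.444). By amino acid the medians ran from 1.33 for the 16 tRNA-Gln rows to -0.33 for the single tRNA-SeC row. Those of tRNA-Pro (-0.17) turned above 0 with RPM scaling (0.17).

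Among other classes ranked by p in this direction, piR-128963 was at 0.747, 0.0787 and 0.342 CPM at 2 months and at 3.01, 1.51, 3.54 and 2.25 CPM in old plasma (log2 change 2.62, SE 0.56, edgeR adjusted p = 0.0931). The lincRNA Gm48997 was at 1.43, 0.944 and 0.616 CPM and at 3.45, 2.58, 2.97 and 3.02 CPM (log2 change 1.56, SE 0.34, edgeR adjusted p = 0.0931). mmu_circ_0016184, hosted by Mbtps2, had a log2 change of 1.99 (SE 0.45, edgeR adjusted p = 0.112), and the snRNA row Gm22946 one of 2.80 (SE 0.65, edgeR adjusted p = 0.125). The snoRNAs Snord14d and Snord14c, with almost the same counts, stood at 1.83 and 1.85.

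In the rRNA class n-R5s69 was at 7.66, 4.25 and 13.9 CPM at 2 months and at 0.215, 1.95, 0.577 and 2.31 CPM in old plasma (log2 change -2.64, SE 0.62, edgeR adjusted p = 0.13). Of 148 rRNA rows 117 had a log2 change below 0, with a median of -1.11 that was -0.89 with RPM scaling, and none passed. Y RNAs, the partners of the Ro protein, summed to 63.3, 29.6 and 92.8 CPM at 2 months and 11.6, 35.8, 16.3 and 26.1 CPM in old plasma, which overlapped through 12-month replicate 2, and both Y RNAs had a log2 change below 0 (median -1.18). 7SL RNA, the core of the signal recognition particle, was at 1571 to 3618 CPM and 760 to 4858 CPM, and vault RNA at 2.99 to 10.1 CPM and 2.58 to 9.68 CPM. Of the spliceosomal RNAs U1 was at 1860 to 3743 CPM and 1464 to 5592 CPM, and U2 at 85.1 to 199 CPM and 108 to 423 CPM. 7SK, which restrains transcription elongation, was at 3.54 to 8.22 CPM and 5.60 to 26.1 CPM. All of these ranges overlap.

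In miRNAs as a class, 113 of 240 had a log2 change above 0 and 127 below, with a median of -0.06 that turned to 0.20 with RPM scaling. The miRNAs below were taken from lists of families and cell types. The red cell list holds only miR-451a and strands of miR-144, miR-486a and miR-486b, which are made in red cell precursors. It had 7 members tested, all 7 below 0 under every scaling tried, with a median of -1.02. None passed, and 5 were lower at an unadjusted p below 0.05, beside 6.73% of all RNAs and 21 of the 240 miRNAs. The list holds both strands of miR-486a and of miR-486b. Over the 7 libraries their 5p strands had 5328 and 5197 counts and their 3p strands 335 and 228. The 7 members are thus not separate observations. The summed level of the list was 693 to 1625 CPM at 2 months and 357 to 1458 CPM in old plasma, so the groups overlapped. miR-486a-5p was at 99.7, 58.9 and 68.9 CPM and at 25.4, 63.0, 24.0 and 35.9 CPM (log2 change -1.03, SE 0.40, edgeR adjusted p = 0.381). miR-144-5p was at 25.5, 12.0 and 13.1 CPM and at 4.74, 14.4, 5.44 and 8.48 CPM, while miR-451a, the most abundant of the list, was at 1209, 486 and 561 CPM and at 270, 1190, 299 and 597 CPM. In each, 12-month replicate 2 lay inside the young range. Whether these values reflect release per cell, the number of releasing cells or anything else was not tested.

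The let-7 family, which holds back growth genes, had 9 of 9 members below 0 under every scaling tried, with a median of -0.57 and none past the threshold. let-7g-5p was at 76.0, 38.7 and 54.8 CPM and at 19.8, 69.3, 29.9 and 36.9 CPM. The miR-17-92 and related cluster members, which are known to promote cell growth, had 9 of 9 below 0 (median -0.51), but 2 of them were above 0 with RPM scaling and with miRNAs alone and 1 with total count scaling. miR-25-3p of this list was at 248, 129 and 159 CPM and at 71.9, 182, 95.0 and 114 CPM. The miR-30 family split, with 3 above and 4 below 0.

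The miR-29 family had 3 members tested, all 3 above 0 under every scaling tried, with a median of 1.17. miR-29b-3p was at 17.2, 6.30 and 12.2 CPM at 2 months and at 11.2, 37.5, 25.1 and 37.1 CPM in old plasma, with 12-month replicate 1 inside the young range and the other 3 old libraries above it (log2 change 1.22, SE 0.49, edgeR adjusted p = 0.388). miR-29c-3p was at 11.8, 4.17 and 8.97 CPM and at 6.68, 25.0, 16.9 and 25.7 CPM (log2 change 1.17, SE 0.51, edgeR adjusted p = 0.435). miR-29a-3p was at 35.2, 11.4 and 27.8 CPM and at 16.8, 70.6, 36.9 and 45.6 CPM (log2 change 0.78, SE 0.52).

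When the 240 miRNAs were fitted and scaled by themselves, 16 passed, or 6.67%, with 9 higher and 7 lower. miR-29b-3p (log2 change 1.43, SE 0.29, edgeR adjusted p = 0.0145) and miR-29c-3p (log2 change 1.36, SE 0.31, edgeR adjusted p = 0.0217) were then higher. The 4 miRNAs called lower over all RNAs passed here too, joined by miR-1898 and both 3′ strands of miR-486 (miR-486a-3p and miR-486b-3p, edgeR adjusted p = 0.0442 each). Also higher were miR-3963, at 32.3, 13.7 and 30.1 CPM and 25.8, 197, 33.2 and 122 CPM, and miR-5100, at 28.3, 10.9 and 24.4 CPM and 27.8, 80.9, 30.0 and 39.8 CPM. Both sets of groups overlapped in CPM through 12-month replicate 1, though not in RPM. With RPM the median log2 change of all tested RNAs was 0.35. All of these miRNAs except those the rule names were named after their values were seen. The remaining higher ones were miR-3470a, miR-3470b, miR-5106, miR-5622-3p and miR-3968. Their RefSeq sequences, where printed, show the seeds in capitals.
miR-3963: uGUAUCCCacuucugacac
miR-5100: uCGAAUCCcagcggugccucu
miR-3968: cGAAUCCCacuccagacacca
They lie at chr3:151023839-151023857 (minus strand), chr11:60728698-60728718 (plus strand, in an intron of Mief2) and chr11:115447969-115447989 (minus strand, across from an exon of Trim80). The last bases of miR-3968 are cca, the same letters that close mature tRNAs, and 23 of 1738 RefSeq mature entries end so.

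**Figure D5:**
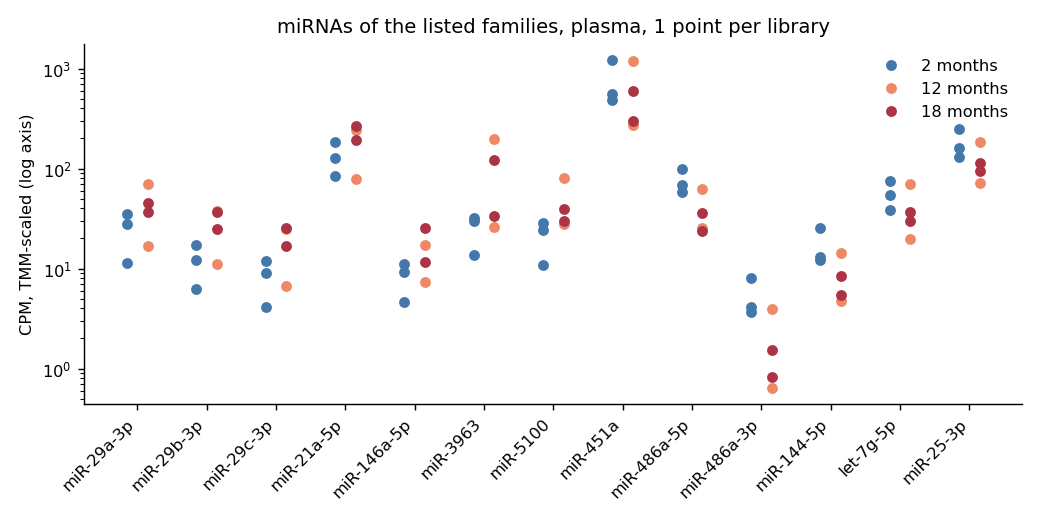
TMM-scaled CPM (log axis) of 13 miRNAs, 1 point per plasma library, with 2 months to the left and 12 and 18 months to the right of each tick. miR-29b-3p lies at 6.30 to 17.2 CPM at 2 months and 11.2 to 37.5 CPM in old plasma, and the red cell miRNA miR-486a-5p at 58.9 to 99.7 and 24.0 to 63.0 CPM.

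The lists that mark other cell types overlapped between the ages in their summed level, and none of their members passed. Under every scaling tried, all tested members of the liver (4) and lymphocyte (4) lists had a log2 change above 0. The same held for the platelet and endothelium (3), vascular smooth muscle (3), muscle and heart (2) and brain (2) lists. Of the myeloid list 1 of 3 was above 0, and of the pancreas list 0 of 1 (2 and 1 with RPM scaling). At an unadjusted edgeR p below 0.05, 1 vascular smooth muscle member was higher, beside 14 of the 240 miRNAs. The liver list (miR-122, miR-192 and others) was at 12.0 to 62.4 CPM at 2 months and 12.3 to 65.2 CPM in old plasma, with miR-122-5p at 41.3, 6.45 and 7.67 CPM and 4.09, 11.1, 40.0 and 19.5 CPM. The platelet and endothelium list was at 49.6 to 180 and 83.1 to 285 CPM, the myeloid list at 55.2 to 152 and 32.9 to 137 CPM, the lymphocyte list at 21.8 to 56.1 and 18.3 to 87.4 CPM, and the vascular smooth muscle list at 12.0 to 29.4 and 18.1 to 36.0 CPM. Muscle and heart miRNAs were at 0.630 to 1.64 and 1.08 to 2.76 CPM and brain miRNAs at 1.54 to 4.70 and 1.08 to 6.88 CPM, with miR-9-5p and miR-129-5p at 0 counts in all 7 libraries. The pancreas list was at 0.394 to 1.62 and 0.431 to 1.07 CPM, with miR-216a-5p and miR-217-5p at 0. None of the inflammation list passed either, and its 3 tested members were above 0 under every scaling tried. Of it miR-21a-5p was at 186, 84.1 and 127 CPM and 79.2, 245, 192 and 265 CPM, and miR-146a-5p at 9.15, 4.64 and 11.2 CPM and 7.32, 17.3, 11.7 and 25.2 CPM. The last list held miRNAs linked to ageing across organs. Of those linked to a rise 2 of 3 tested were above 0, miR-29a-3p and miR-29c-3p, while miR-1895 was at -0.20, a value that turned to 0.17 with RPM scaling. Of the 3 linked to a fall none reached the filter.

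Within the old group, 18 months was compared with 12 months (2 libraries each). edgeR called 0 of 16007 RNAs (0%), with 1055 (6.59%) at an unadjusted p below 0.05, and DESeq2 called 122. Of the 118 RNAs lower in old plasma, 8 were among the 1055.

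The libraries that took no part in the comparison show how the summed level of the 118 called RNAs stood elsewhere. This sum is weighted to abundant rows and does not show how each RNA stood. The 3 Ubr3 rows with almost the same counts were each at 2992 to 2999 CPM in 2-month replicate 1, scaled over the 7 libraries. Scaled over all 28 libraries, they summed to 14799, 10779 and 16733 CPM at 2 months and 1658, 2276, 2108 and 3761 CPM at 12 and 18 months, which the choice of these RNAs fixes. At 6 months the sum was 7641, 5054, 9182 and 2548 CPM, and at 8 months 22232, 4263 and 12303 CPM. One 6-month library was thus inside the old range, one 8-month library was above all young ones, and the others lay between or among the young. In EVs the sum was 20012.5, 43957 and 16510.5 CPM at 2 months and 12375, 15393, 23409 and 19032 CPM at 12 and 18 months, and these overlapped.

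For the age difference in EVs itself, 116 of the 118 had a log2 change below 0, beside 48.5% of the 17707 RNAs tested over both fractions. At an unadjusted p below 0.05, 52 of the 118 were lower in EVs, beside 1.81% of all, but none passed after adjustment, and 0 of the 17707 did. By their labels at least 5 of the 7 EV libraries come from mice that also gave a plasma library, and the 118 rows hold 68 loci. The median log2 change of the 118 in EVs was -0.83. Gm49756 had 67.2 to 143 RPM in EVs at 2 months and 32.6 to 65.8 RPM at 12 and 18 months (log2 change -1.17, SE 0.32), while Gm22771 had 5.05 to 9.09 and 2.17 to 14.8 RPM (0.01, SE 0.63). A direct test of whether the age difference itself differed between EVs and plasma called 0 RNAs (0%), with 1098 (6.2%) at an unadjusted p below 0.05 and 4 by DESeq2. Since the 118 were chosen for their difference in plasma, its greater size there is no separate result. miR-29b-3p had 17.8 to 46.0 RPM in EVs at 2 months and 75.4 to 126 RPM at 12 and 18 months, without overlap. On the same RPM scale it had 14.2 to 33.7 in young plasma and 34.5 to 83.5 in old plasma, also without overlap. In CPM its plasma groups overlapped. The share of all RNAs that lay apart upward in RPM is not given here. Its log2 change in EVs was 1.94 and did not pass (SE 0.50, edgeR adjusted p = 0.77 over all RNAs). Its test of the difference between fractions gave an edgeR adjusted p of 0.85.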

How the data were processed

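Small RNA libraries of EV-depleted plasma were compared between 12 to 18 months (n = 4) and 2 months (n = 3), grouped by GEO's titles. The authors deposited estimated counts per RNA, which are not normalized and not always whole, and the same table as an RPM signal, in which the authors divided each count by 1 number per library. The submitters' processing notes name R 4.0.4 and mm10. For this cohort, the sources used here name neither the aligner nor the rule for reads with several matches. Copies of a tRNA or 5S rRNA often held the same whole counts, so class shares may weigh repeated genes more, while fractional counts were found in 46 miRNA rows.

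Counts were rounded and tested with edgeR 4.0.16 (TMM, glmQLFit, glmQLFTest; limma 3.58.1, R 4.3.3) after keeping RNAs with at least 1 RPM in at least 3 libraries, with Benjamini-Hochberg adjustment at 0.05. DESeq2 1.42.0 was the other tool. Total counts were 2711590 to 23905700. Class shares were compared by exact permutation in Python 3.11.15 (scipy 1.17.1). p-values measure the spread between these mice only.

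The age difference in EVs and the interaction used the 14 libraries of both fractions. EV and plasma libraries share an animal code in 5 of 7 pairs. The other 2, of 2-month replicates 2 and 3, were matched by replicate number alone, since the plasma code does not separate the animals. Deviations of the 7 pairs from the age means correlated at -0.06 to 0.55, and a block on these pairs left the interaction at 0 calls. Both 12-month pairs gave 0.55 and both 18-month pairs 0.26, since 2 libraries of 1 age deviate by equal and opposite amounts. Named RNAs were, in each direction, the 8 miRNAs and, per other class, the 2 RNAs with the smallest p, a mean of at least 2 RPM and groups without overlap, plus the most abundant members of the lists and sums of tRNAs and other small RNAs. RNAs and lists were chosen with earlier results of these data known. Alternatives were other tools, scalings, filters, pseudocounts, sets of libraries, a replicate block and each library left out. For the difference between fractions each pair of a plasma and an EV library was left out together. The tests were tested on simulated data.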

Additional observations from a re-analysis of the deposited data

Results flagged for a closer look

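Among the 4 old libraries some values stood apart from the other 3, by a gap that, divided by the whole range, was past Dixon's 95% critical value for 4 samples, which chance gives in about 1 group in 20. For the share of miscellaneous RNA this ratio was 0.896, with 12-month replicate 2 at 0.536% and the others at 0.248% to 0.278%. For the Usp48 circRNA it was 0.833 and for the Fndc3a circRNA 0.906, in both with 12-month replicate 2 lowest, although the whole old range there was narrow. For Gm49756 it was 0.845, with 18-month replicate 2 highest. For Gm32055 it was 0.882, with 18-month replicate 1 at 4.04 CPM and the others at 1.41 to 1.72 CPM. For Gm22667, listed as miscellaneous RNA, it was 0.962, with 18-month replicate 2 at 14.0 CPM and the others at 0.646 to 1.15 CPM. For miR-5106 it was 0.858, for the rRNA row Gm23999 0.889 and for miR-128-3p 0.844, each with 12-month replicate 2 highest.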

How the results depend on the processing

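The count of 118 RNAs, all lower, depended on the setting. It was 323 with DESeq2 (276 lower, 47 higher), 12 with RPM scaling (12 lower), 94 with total count scaling (66 lower, 28 higher), 16 of 240 with miRNAs alone (7 lower, 9 higher), 1127 with no filter (605 lower, 522 higher), 1 higher beside 172 lower with at least 5 RPM, 16 with limma on log2(RPM + 0.5) (16 lower), 12 higher beside 99 lower with limma on log2(RPM + 1), and 101 with the study's filter. With all 14 plasma libraries in the fit and with 18 months alone it was 0, and with 12 months alone it was 2 (0 lower, 2 higher). Leaving out 1 library gave 0 to 110 calls (0 to 108 lower, 0 to 2 higher). A replicate block gave 0. Deviations of libraries of the same number from their age means correlated at r from -0.43 to 0.25 over RNAs. These values cannot settle whether the numbers mark anything shared, since 2 libraries of 1 age deviate by equal and opposite amounts. Rows with identical counts kept once gave 115 and leaving out tRNA, rRNA and piRNA rows 127, both chosen after seeing the data. 18 against 12 months gave 0 calls, 122 with DESeq2 and 0 with the replicate block. The difference between fractions gave 0 calls, 4 with DESeq2 and 0 with each pair of a plasma and an EV library left out in turn.

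The tRNA, rRNA and piRNA shares kept their direction in every setting. The tRNA difference was 11.5 points, 9.09 to 13.2 with 1 library left out and 7.28 without rRNA. The small differences of the circRNA, lncRNA, miRNA and snoRNA shares turned, with ranges of -2.13 to 0.80, -0.74 to 0.17, -0.046 to 0.017 and -0.0083 to 0.012 points with 1 library left out, and that of miRNA was 0.0078 with identical rows counted once.

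Some log2 changes that were not called turned as well. With 1 library left out miR-451a ran from -0.95 to 0.17, miR-144-3p from -0.86 to 0.24, miR-142a-3p from -1.08 to 0.23, miR-122-5p from -0.65 to 1.41, miR-150-5p from -0.51 to 0.61, miR-128-3p from -0.51 to 1.31, miR-219a-5p from -0.24 to 0.52, miR-375-3p from -0.66 to 0.12, miR-30c-5p from -0.35 to 0.41 and miR-1895 from -0.39 to 0.12. With RPM scaling miR-375-3p was at 0.015, miR-30c-5p at 0.22 and miR-1895 at 0.17, with limma on log2(RPM + 1) at 0.049, 0.27 and 0.090, and on log2(RPM + 0.5) at 0.076, 0.28 and 0.090. miR-30c-5p was at 0.0072 with total count scaling, 0.15 with miRNAs alone, 0.068 with all 14 plasma libraries and 0.030 with 12 months alone. With 12 months alone miR-122-5p was at -1.22, with 18 months alone miR-150-5p at -0.33, miR-128-3p at -0.38 and miR-1895 at 0.17, and with the replicate block miR-219a-5p at -0.24 and miR-1895 at 0.10. Of 1714 values of 81 named RNAs under other settings, 35 turned, 154 fell behind the threshold, 75 passed it and 1450 stayed on their side. The causes were not tested. By total count no library of the 7 was under 2000000, so leaving out such libraries was not run. By the RPM divisor 12-month replicate 1, at 1506060, was under it, and without it there were 0 calls. The two-sided permutation test used here, which doubles the smaller tail, cannot go below 0.0571 with 3 and 4 libraries, and the 7380 miRNA counts of the shallowest library limit what can be seen of rare miRNAs.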
